A study of Fukomys damarensis with 47 samples.

Results

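RNA-Seq counts of vehicle-treated cells from the long bones of 5 Damaraland mole-rat queens were compared with those of 11 nonbreeding females, 16 of the 47 cultures of the series. The members were chosen by their labels: pooled long bones, vehicle, and breeding status queen or nonbreeder. Each animal gave 1 of these cultures. The queens (DVF007, LAF007, MAF006, NOF009 and WAF014) had been paired with an unrelated male. The nonbreeders were 7 helpers, kept in the natal colony, and 4 solitaires, housed alone. The animals fall into 8 natal colonies of 2 sisters, read from the part of the name before the letter F. In 5 colonies (DV, LA, MA, NO and WA) a queen has a nonbreeding sister, which is a solitaire in MA and a helper in the other 4. The other 3 colonies hold a helper and a solitaire each (G1F022 and G1F025, G4F019 and G4F020, and WEF002 and WEF001). Queens were 1004 to 1132 days old and nonbreeders 1003 to 1232 days old, and sisters differed by 1 day. All groups share the culture conditions: marrow cells of several limb bones were plated in medium that favours bone marrow-derived mesenchymal stromal cells (bMSCs) and were given vehicle for 24 hr. The days in culture before treatment differed between plates and are not among the labels.

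Bone marrow holds stromal cells, which can form bone, cartilage and fat, beside blood cells and their precursors. Macrophages adhere to culture plastic as stromal cells do, so a marrow culture enriched for bMSCs usually holds both. Osteoclasts, the cells that resorb bone, come from the same myeloid lineage as macrophages and dissolve bone matrix with acid and with lysosomal proteases. The comparison asks which genes differ between cells of queens and nonbreeders when no estradiol is added to the dish.

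The total count was 6174122 to 12783119 per culture, and 99.47% to 99.82% of it fell on the 11047 genes tested. Genes of stromal cells and of blood cells were both measured in every culture: ENG, a surface marker of stromal cells, was 0.82 to 34.9 CPM and LAPTM5, a marker of blood cells, 25.6 to 1200 CPM. ENG is also on the list of endothelial markers used here, and it was low, with 7 counts in WEF001. Summed over 23 osteoblast and bone matrix genes, the level was 4370 to 23800 CPM (counts per unit of library size, with TMM factors), and summed over 23 myeloid and leukocyte markers it was 179 to 3820 CPM. Cultures of MAF006 and NOF009, both queens, stood apart in both sums. MAF006 had 4370 CPM and NOF009 had 8330 CPM of the matrix genes, where the 11 nonbreeders had 11300 to 20700 CPM. DVF007, also a queen, lay above that range at 23800 CPM. For the myeloid markers, the values were 3820 CPM in MAF006 and 3550 CPM in NOF009, and 179 to 1390 CPM in the nonbreeders. The other 3 queens, with 360 to 766 CPM of these markers, lay within the nonbreeder range. Counts of whole cultures cannot tell more cells of a type from more RNA per cell.

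With natal colony as a block, the genes called in the edgeR fit were all higher in queens. Of the 5 that have a symbol here, 4 (CLEC4E, ARL11, GPR65 and CTSS) are on the list of myeloid and leukocyte markers. That list holds 23 of the 1117 tested genes with a symbol and was written with earlier results of these samples known, so the overlap is not independent evidence. Of 11047 genes tested, 76 were higher in queens at a false discovery rate (FDR) of 10%, a background of 0.688%, and 0 were lower. The smallest adjusted p of a gene with lower expression was 0.131 (edgeR), and 154 genes were lower at an unadjusted p under 0.05, a background of 1.39%. DESeq2's Wald test called 13 lower genes at an FDR of 10% and limma voom called 0. At an FDR of 20%, 154 genes were higher (1.39%) and 1 was lower (0.00905%). An unadjusted p under 0.05 was reached by 476 genes with higher expression (4.31%). Among the 76 genes, log2 fold changes were 1.29 to 5.34, with a median of 2.80, and the median of all genes tested was 0.01. The other symbol is SHTN1. Symbols are known here for 5 of these 76 genes and for 11 of the 155 genes at an FDR of 20%.

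The ranges of queens and nonbreeders overlapped. In none of the 76 genes did the 5 queens lie wholly above the 11 nonbreeders, and 59 of the 76 had the queen above its sister in all 5 pairs. The 76 were chosen by a fit to these same pairs, so that the 59 was largely set beforehand. No gene of the 11047 had all queens above all nonbreeders (0%), and in 399 genes each of the 5 queens was above its own sister (3.61%). In the fit without the colony block, 0 genes passed an FDR of 10% (edgeR), 2 passed 20% and 753 had an unadjusted p under 0.05. With the block, log2 fold changes come from the 5 sister pairs, and the colonies without a queen inform only the spread. The 5 sister pairs alone gave 2 genes at an FDR of 10%, 1 higher and 1 lower, and neither is among the 76. Without the MA pair, 11 genes passed an FDR of 10% and 37 passed 20%. Leaving out the MA and NO pairs left 0 genes at either threshold (edgeR, smallest adjusted p = 0.521), with 202 genes at an unadjusted p under 0.05, 182 of them higher in queens. The 76 genes were chosen in a fit that holds the remaining pairs too, so that their direction in these smaller fits was largely set beforehand.

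The symbols with the smallest p, CLEC4E and ARL11, are both on the myeloid list. CLEC4E, a C-type lectin receptor by which macrophages sense microbial glycolipids and dying cells, was 0.644 CPM in DVF007, 15.4 in LAF007, 35.2 in WAF014, 148 in MAF006 and 196 in NOF009. In nonbreeders it ranged from 0.239 to 72.8 CPM, with a median of 17.9. The ranges overlapped, but each queen was above its own sister, by 0.91 (DV), 2.75 (LA), 2.81 (NO), 3.31 (MA) and 4.82 (WA) on the log2 CPM scale. In the block fit its log2 fold change was 3.27 (SE 0.45, edgeR adjusted p = 0.0236), and it was 3.28 (adjusted p = 0.0477) without the MA pair. Without the colony block it was 1.61 (edgeR adjusted p = 0.756). ARL11, a small GTPase of macrophages, was 0.858, 13.6, 20.3, 47.7 and 90.7 CPM in DVF007, LAF007, WAF014, MAF006 and NOF009. Its nonbreeder levels were 0.399 to 21.2 CPM, with a median of 6.79, so that the 2 highest queens lay above all nonbreeders and the others within their range. For ARL11 the log2 fold change was 2.85 (SE 0.49, edgeR adjusted p = 0.0517), and its adjusted p was 0.146 without the MA pair.

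GPR65, a proton-sensing receptor of leukocytes, was low: it had 0 counts in both DV sisters, 0.884 CPM in LAF007, 1.63 in WAF014, 14 in NOF009 and 18 in MAF006. Nonbreeders had 0 to 5.77 CPM, with a median of 1.82. GPR65 had a log2 fold change of 2.62 (SE 0.48, edgeR adjusted p = 0.0580), and without the MA pair the adjusted p was 0.23. LAPTM5, a lysosomal membrane protein of blood cells, was 105, 116, 235, 789 and 1200 CPM in DVF007, LAF007, WAF014, MAF006 and NOF009. Nonbreeders had 25.6 to 381 CPM of LAPTM5, with a median of 145. The queen was above its sister in 4 of 5 pairs, by 1.67 to 3.19 log2 units, and below it by 0.46 in DV. At a log2 fold change of 1.83 (SE 0.43), LAPTM5 passed an FDR of 20% (edgeR adjusted p = 0.116) but not 10%, and without the MA pair its adjusted p was 0.507.

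**Figure D1:**
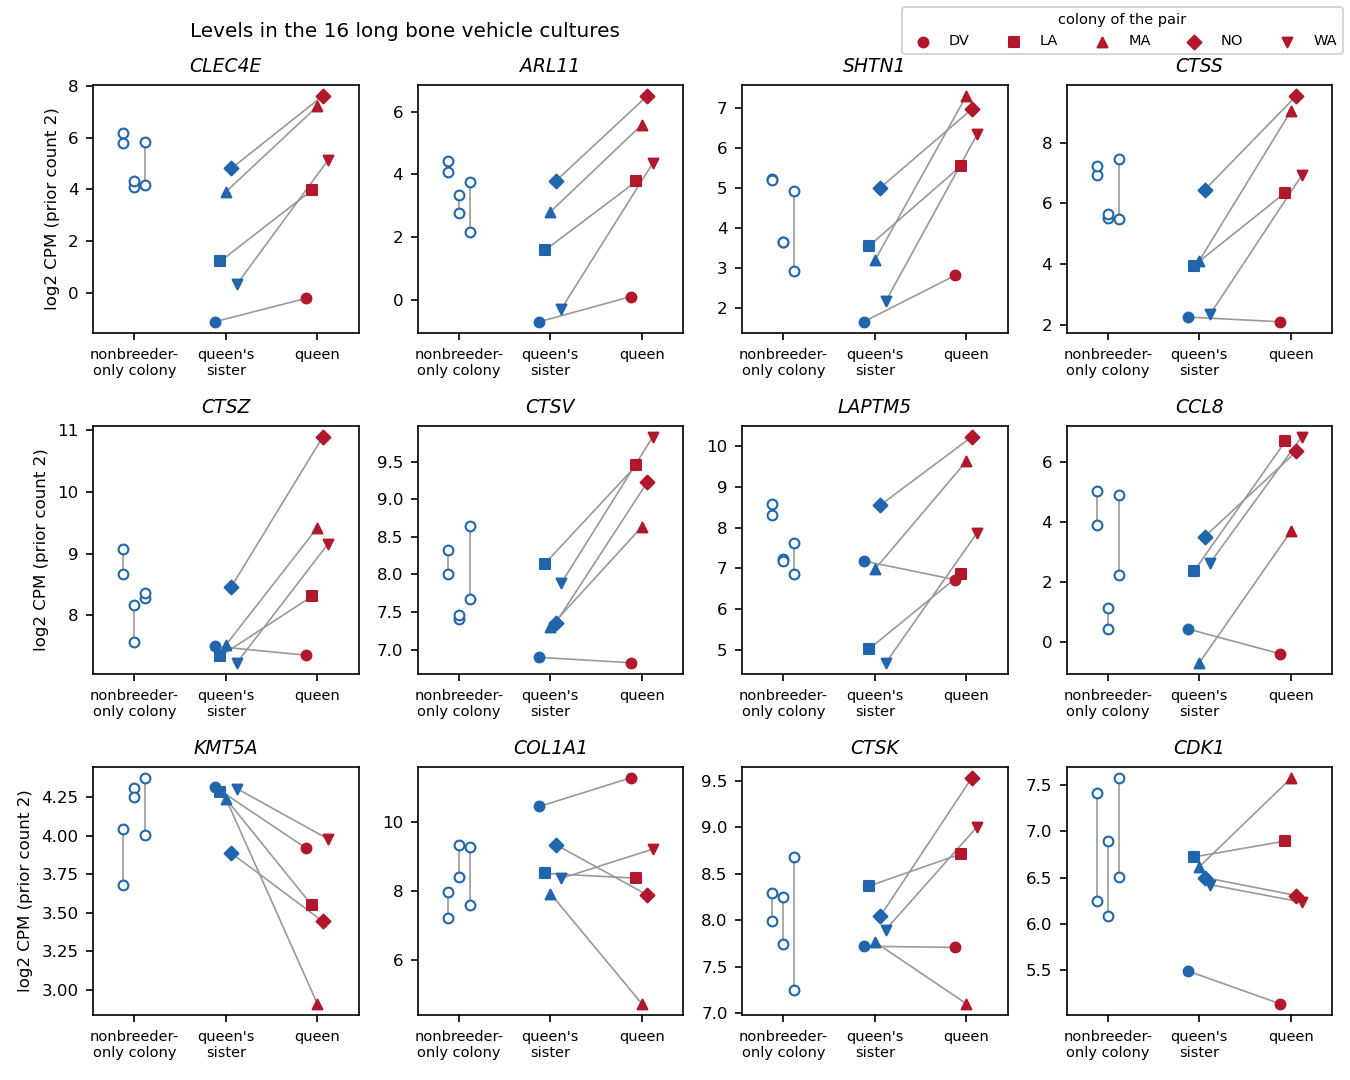
Each panel plots log2 CPM (prior count 2) of 1 gene in the 16 cultures; open circles are the 6 animals of colonies without a queen, filled blue symbols the sisters of queens, red symbols the queens, and grey lines join sisters. Lines rise by 0.97 to 4.92 in LA, MA, NO and WA for CLEC4E, ARL11, SHTN1, CTSS, CTSZ, CTSV, LAPTM5 and CCL8, while the DV line has the smallest rise of the 5 or falls in each of these panels, and the queen and nonbreeder ranges overlap in every panel.

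Of the 23 myeloid and leukocyte markers tested, 4 passed an FDR of 10%, 6 passed 20% and 11 had an unadjusted p under 0.05, all with higher expression in queens (backgrounds 0.688%, 1.39% and 4.31%). The median log2 fold change of the 23 was 1.16, against 0.01 for all genes, and 21 of them were above 0. The list was written with earlier results of these samples known, and 2 of its members, CLEC4E and ADAM8, also stand in gene ontology terms that the study chose on them. C3AR1, the receptor for the complement fragment C3a, was the sixth member past an FDR of 20% (log2 fold change 2.38, SE 0.60, edgeR adjusted p = 0.149; 0.485 without the MA pair). Beside ADAM8, 4 further markers had an unadjusted p under 0.05 but failed the correction: TLR8, an endosomal sensor of RNA (2.09, SE 0.58, adjusted p = 0.228), CD180, a Toll-like surface receptor (1.54, SE 0.50, adjusted p = 0.406), NOD2, a cytosolic sensor of bacterial cell walls (0.87, SE 0.39, adjusted p = 0.849), and IL10RA, a subunit of the interleukin 10 receptor (1.75, SE 0.79, adjusted p = 0.849). C3AR1 and these 4 were named after their values were seen.

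Pair by pair, the myeloid markers did not move as a whole. The median difference of the 23 between queen and sister was 2.43 log2 units in WA, 2.09 in MA and 1.67 in NO, but -0.03 in LA and -0.15 in DV. In LA the queen was higher in 11 of the 23 and in DV in 7. In the nonbreeder pairs, helper minus solitaire, the medians were -0.34 (G1), 0.01 (G4) and 0.07 (WEF002 minus WEF001). Without the MA and NO pairs, 7 of the 23 were higher at an unadjusted p under 0.05 and the median was 0.69. In that fit 182 of all 11047 genes were higher at that p. The list was written with results of the remaining pairs known too. CORO1A, an actin-binding protein of leukocytes, did not pass the test (log2 fold change 1.04, SE 0.52, edgeR adjusted p = 0.967). It was higher in the queen by 2.49 in MA, 1.87 in NO and 1.66 in WA and lower by 0.92 in LA and 0.08 in DV.

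Among 4 lymphoid markers tested, none passed an FDR of 20% with edgeR and 1 did with DESeq2 and with limma voom. Of all 11047 genes, 355 did with DESeq2 and 248 with limma voom. The median log2 fold change of the 4 was 0.95. IL7R, the receptor for interleukin 7, had the smallest p of the 4 and was named for it (2.03, SE 0.58, edgeR adjusted p = 0.255). Summed, these 4 genes were 77.1 to 984 CPM in queens and 41.1 to 288 CPM in nonbreeders, with MAF006 (984) and NOF009 (702) highest. CORO1A is on both blood cell lists. Among 7 endothelial markers none passed an FDR of 20%, 1 was lower at an unadjusted p under 0.05 (background 1.39%), and the median was -0.24. The part of other cell types in the differences was not tested here. The paper estimated cell-type proportions from its RNA-Seq samples of both bones and treatments. It reported no difference between queens and nonbreeders in the main components of these proportions. For its queen-associated genes, it found no significant mediation of the status effect by the leading component.

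Lysosomal proteases were the second group with calls. CTSS, a cysteine protease that antigen-presenting cells use, was 4.08 CPM in DVF007, 81.6 in LAF007, 121 in WAF014, 525 in MAF006 and 745 in NOF009. Nonbreeders had 4.55 to 178 CPM, with a median of 45.7. Both DV sisters were at the bottom of the range, while the sisters differed by 2.40 (LA), 3.09 (NO), 4.57 (WA) and 4.92 (MA) log2 units in the other pairs. For CTSS the fit gave a log2 fold change of 3.12 (SE 0.67, edgeR adjusted p = 0.0872), and 2.61 (adjusted p = 0.297) without the MA pair.

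CTSZ and CTSV, other cysteine cathepsins of the lysosome, passed an FDR of 20%. CTSZ was 164, 317, 574, 686 and 1900 CPM in DVF007, LAF007, WAF014, MAF006 and NOF009, and 150 to 542 CPM in nonbreeders, with a median of 289. Its log2 fold change was 1.44 (SE 0.34, edgeR adjusted p = 0.113). CTSV was 113, 397, 600, 700 and 912 CPM in DVF007, MAF006, NOF009, LAF007 and WAF014, and 119 to 399 CPM in nonbreeders, with a median of 204. The order of queens differed between these proteases: NOF009 was highest for CTSZ and WAF014 for CTSV. CTSV had a log2 fold change of 1.29 (SE 0.30, edgeR adjusted p = 0.113), and neither gene passed an FDR of 20% without the MA pair.

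CTSK, the collagen-degrading cathepsin of osteoclasts, did not follow them. It was 137 CPM in MAF006, 209 in DVF007, 420 in LAF007, 514 in WAF014 and 741 in NOF009, and 152 to 412 CPM in nonbreeders, with a median of 255. The queen was the higher sister in LA, NO and WA, and MAF006 was lower than its sister by 0.67 log2 units. The log2 fold change of CTSK was 0.45 (SE 0.34, edgeR adjusted p = 1.00). Of the 19 lysosome and resorption genes tested, 1 passed an FDR of 10%, 3 passed 20% and 4 had an unadjusted p under 0.05, all higher in queens (backgrounds 0.688%, 1.39% and 4.31%). The median was 0.34. The fourth was ASAH1, acid ceramidase, named after its values were seen (0.99, SE 0.30, adjusted p = 0.322), which was higher in all 5 queens than in their sisters. CTSS is on this list and on the myeloid list.

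In the list of cytokine and interferon genes, 1 gene passed an FDR of 20% with edgeR, 4 with DESeq2 and 3 with limma voom. Of all 11047 genes tested, 155, 355 and 248 did. CCL8, a chemokine that attracts monocytes, was 0.536 CPM in DVF007, 12.6 in MAF006, 81.7 in NOF009, 103 in LAF007 and 115 in WAF014. Nonbreeders had 0.394 to 32.3 CPM, with a median of 4.89. Thus 3 queens lay above all nonbreeders, and MAF006, the queen with the most myeloid marker RNA, was not among them. CCL8 had a log2 fold change of 3.38 (SE 0.77, edgeR adjusted p = 0.105), and its adjusted p was 0.333 without the MA pair. Of the 18 genes of this list tested, 4 were higher at an unadjusted p under 0.05 (background 4.31%). Among them was C3, the central complement component (1.67, SE 0.51, adjusted p = 0.322), again named after its values were seen. IL13RA2, a decoy receptor for interleukin 13, was the gene of this list with lower expression at that p.

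The other 2 of the 10 symbols with the smallest p are on none of the lists. SHTN1, shootin 1, known from growing axons, was 6.86, 46.6, 81.1, 125 and 158 CPM in DVF007, LAF007, WAF014, NOF009 and MAF006. Nonbreeders had 2.95 to 37.5 CPM, with a median of 12.4, so that only DVF007 lay within their range. Its log2 fold change was 2.71 (SE 0.51, edgeR adjusted p = 0.0580), with an adjusted p of 0.187 without the MA pair. TCN1, a vitamin B12 binding protein of neutrophil granules, was 0.107, 4.12, 5.86, 47.7 and 60.3 CPM in DVF007, LAF007, WAF014, MAF006 and NOF009, against 0 to 28.1 CPM in nonbreeders, with a median of 3.78. It had a log2 fold change of 3.10 (SE 0.71, edgeR adjusted p = 0.105). The genes with the smallest p of all, ENSFDAG00000016194 (3.03, SE 0.37) and ENSFDAG00000011126 (2.86, SE 0.35), have no symbol here and an edgeR adjusted p of 0.0113 each.

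**Figure D2:**
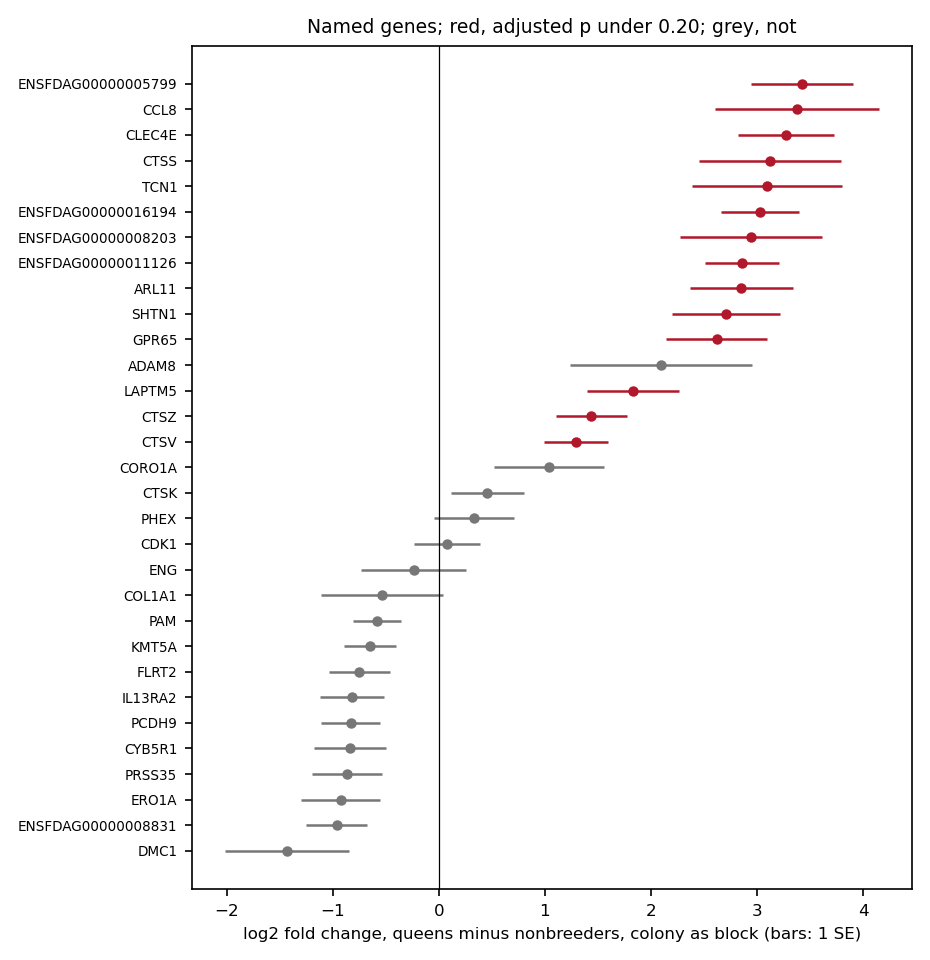
Points give the log2 fold change, queens minus nonbreeders with colony as block, of genes named by rule, and bars give 1 standard error; ENSFDAG00000017019, which is near 0 counts in most animals, is not drawn. Red points, past an FDR of 20%, all lie between 1.29 and 3.43, and every gene drawn below 0 is grey. ENSFDAG00000017019 itself was lower in queens and past an FDR of 20% (log2 fold change -8.67, edgeR adjusted p = 0.131).

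Genes under gene ontology terms that the study chose on these samples are not independent evidence of a direction. The study sought these terms among its genes upregulated in queens, and the genes used here are those it lists with a term. Their direction was thus largely set beforehand. All 5 genes so listed under bone resorption were higher in queens at an unadjusted p under 0.05, 4 passed an FDR of 20% and 2 passed 10% (backgrounds 4.31%, 1.39% and 0.688%). ENSFDAG00000005799 had the smallest p of the 5. It was 1.39, 17.6, 23.0, 23.4 and 43.6 CPM in DVF007, LAF007, WAF014, MAF006 and NOF009, and 0.239 to 30.8 CPM in nonbreeders, with a median of 8.15. Its log2 fold change was 3.43 (SE 0.48, edgeR adjusted p = 0.0236), and 2.94 (adjusted p = 0.0452) without the MA pair. ADAM8, a metalloprotease of leukocytes and osteoclasts, was the member that did not pass an FDR of 20% (2.10, SE 0.86, adjusted p = 0.692). Its differences were 0.07 (DV), 0.32 (MA), 1.23 (LA), 2.3 (NO) and 6.67 (WA), the last against a sister with 0 counts, so that its size depends on the prior count.

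Of the 4 genes so listed under superoxide anion generation, 3 passed an FDR of 20% (background 1.39%) and none passed 10%. The one with the smallest p, ENSFDAG00000008203, was 3.97, 205, 264, 747 and 2170 CPM in DVF007, LAF007, WAF014, MAF006 and NOF009. Nonbreeders had 6.70 to 342 CPM, with a median of 74.8. The log2 fold change was 2.95 (SE 0.67, edgeR adjusted p = 0.105), and the adjusted p was 0.396 without the MA pair. Under leukocyte chemotaxis, 3 of 8 listed genes passed an FDR of 10% and 5 passed 20%, and under cytokine secretion 6 of 8 and 8 of 8 did (backgrounds 0.688% and 1.39%). Within the DV pair the medians of the 4 terms were 0.44 (bone resorption), -0.21 (superoxide anion generation), 0.49 (leukocyte chemotaxis) and 0.17 (cytokine secretion), the lowest of the 5 queen pairs in each term.

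Lower expression in queens was smaller in size and passed no correction in the edgeR fit for any gene with a symbol. The 10 such genes with the smallest p had log2 fold changes of -0.59 to -1.44 and edgeR adjusted p-values of 0.436 to 0.692. In 8 of these 10 all 5 queens were below their sisters (204 of all 11047 genes, 1.85%), but they were chosen by this contrast.

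KMT5A, which adds a methyl group to histone H4, was 7.30 CPM in MAF006, 10.7 in NOF009, 11.5 in LAF007, 14.9 in DVF007 and 15.5 in WAF014, and 12.6 to 20.6 CPM in nonbreeders, with a median of 18.8. The edgeR fit gave KMT5A a log2 fold change of -0.65 (SE 0.25, adjusted p = 0.602).

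The other genes of this group have unlike functions. They include PCDH9, a cell adhesion protein, with -0.83 (SE 0.28), IL13RA2 with -0.82 (SE 0.30), FLRT2, a membrane protein that guides cell migration, with -0.75 (SE 0.29), and PAM, which amidates peptide hormones, with -0.59 (SE 0.23). ERO1A, which forms disulphide bonds in the endoplasmic reticulum, had -0.93 (SE 0.37), CYB5R1 -0.84 (SE 0.34), PRSS35 -0.87 (SE 0.33) and DMC1, a meiotic recombinase, -1.44 (SE 0.58). CYB5R1 was 125 CPM in MAF006, 380 in NOF009, 620 in DVF007, 757 in WAF014 and 1020 in LAF007, against 661 to 1350 CPM in nonbreeders, with a median of 801, so that MAF006 was far below the rest. Of genes without a symbol, ENSFDAG00000008831 had -0.97 (SE 0.29, edgeR adjusted p = 0.298).

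TCF7L1, a transcription factor of the Wnt pathway that mostly represses its targets, was the gene of the 11047 in which all 5 queens lay below all 11 nonbreeders (0.00905%); it was named for this after its values were seen. Queens had 7.72 (MAF006), 18.4 (WAF014), 18.8 (NOF009), 19.2 (LAF007) and 20.4 CPM (DVF007), and nonbreeders 21.9 to 61.8 CPM, with a median of 27.8. The gap between the groups was small beside the spread, and in the block fit TCF7L1 did not pass (log2 fold change -0.77, SE 0.32, edgeR adjusted p = 0.730). The queen was lower by 0.25 (WA), 0.34 (LA), 0.39 (DV), 1.07 (NO) and 1.82 (MA). GREM1, a secreted inhibitor of bone morphogenetic proteins and also named after its values were seen, was the other gene of the 14 tested for TGF-beta, BMP and Wnt signalling with an unadjusted p under 0.05 (-0.82, SE 0.37, adjusted p = 0.850), and the list had a median of -0.22. Over all genes tested, 1.39% were lower at an unadjusted p under 0.05. ENG, a co-receptor of TGF-beta, had -0.24 (SE 0.50, adjusted p = 1.00), with the queen higher by 1.33 in NO and 1.29 in WA and lower by 0.84 to 1.45 in the other pairs.

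No bone matrix gene passed the tests. Of 23 osteoblast and bone matrix genes, 0 passed an FDR of 20% or an unadjusted p under 0.05 with edgeR, DESeq2 or limma voom. Of all 11047 genes tested, 155, 355 and 248 passed that FDR, and 630, 806 and 764 had such a p. For a list of this size, 0 is near the share over all genes. The median log2 fold change of the 23 was -0.46. Within the MA pair it was -2.69 and in the other 4 pairs -0.49 to 0.45, and without the MA pair the median of the fit was -0.01. COL1A1, the main collagen of bone, was 26.5 CPM in MAF006, 237 in NOF009, 332 in LAF007, 595 in WAF014 and 2490 in DVF007, and 150 to 1400 CPM in nonbreeders, with a median of 342. Both DV sisters had the highest levels of all, and MAF006 the lowest. The log2 fold change of COL1A1 was -0.54 (SE 0.57, edgeR adjusted p = 1.00) and turned to 0.03 without the MA pair. PHEX, an endopeptidase of osteoblasts and osteocytes that bears on phosphate balance, was 3.65 to 14.7 CPM in queens and 3.25 to 12 CPM in nonbreeders (log2 fold change 0.33, SE 0.38, adjusted p = 1.00).

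For the remaining lists, the counts over all genes are those given above beside the bone matrix list. The last 5 lists had no member past an FDR of 20% or an unadjusted p under 0.05 with edgeR, DESeq2 or limma voom. Their medians were -0.05 for 12 contractile and smooth muscle genes, 0.18 for 24 cell cycle genes, -0.17 for 8 adipocyte and lipid storage genes, 0.03 for 18 genes of mitochondrial respiration and -0.14 for 9 cytosolic ribosome genes. CDK1, which drives entry into mitosis, was 35.0 to 190 CPM in queens and 44.7 to 191 CPM in nonbreeders, with a log2 fold change of 0.08 (SE 0.31, adjusted p = 1.00). Cell cycle medians within pairs ran from -0.35 in DV to 0.98 in MA, and from -0.85 to 0.66 in the nonbreeder pairs.

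**Figure D3:**
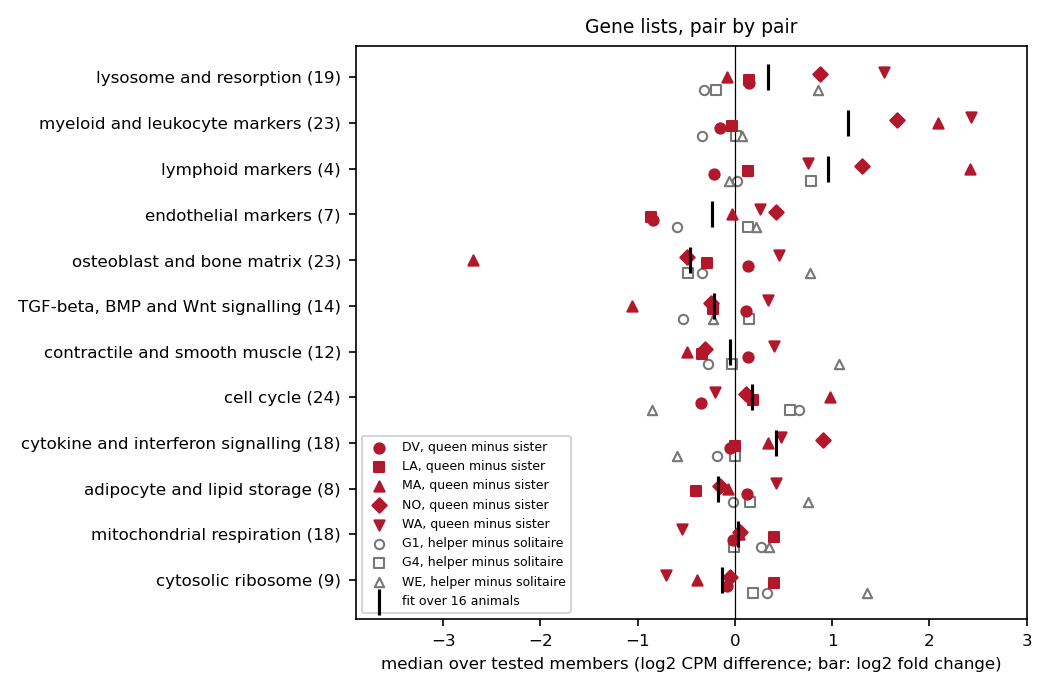
For each list, with the number of genes tested in parentheses, red symbols give the median log2 CPM difference between queen and sister in 1 pair, open grey symbols that between helper and solitaire, and the black bar the median log2 fold change of the fit. For myeloid markers WA, MA and NO lie between 1.67 and 2.43 and DV and LA near 0, and for bone matrix genes MA lies alone at -2.69.

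The pairs were unlike in how far the sisters stood apart. Of the 11047 genes, 241 were higher and 349 lower in the queen by over 1 log2 unit in DV, 394 and 740 in LA, 1093 and 636 in NO, 1970 and 277 in WA, and 2021 and 2591 in MA. The share of genes past 1 log2 unit in either direction was thus 5.34% in DV, 10.3% in LA, 15.7% in NO, 20.3% in WA and 41.7% in MA. The colonies without a queen covered the same span, with 7.92% in G4, 10.4% in G1 and 41.8% for WEF002 and WEF001, where the helper was higher than the solitaire in 2703 genes. The shares of the queen pairs and of the nonbreeder pairs overlapped.

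**Figure D4:**
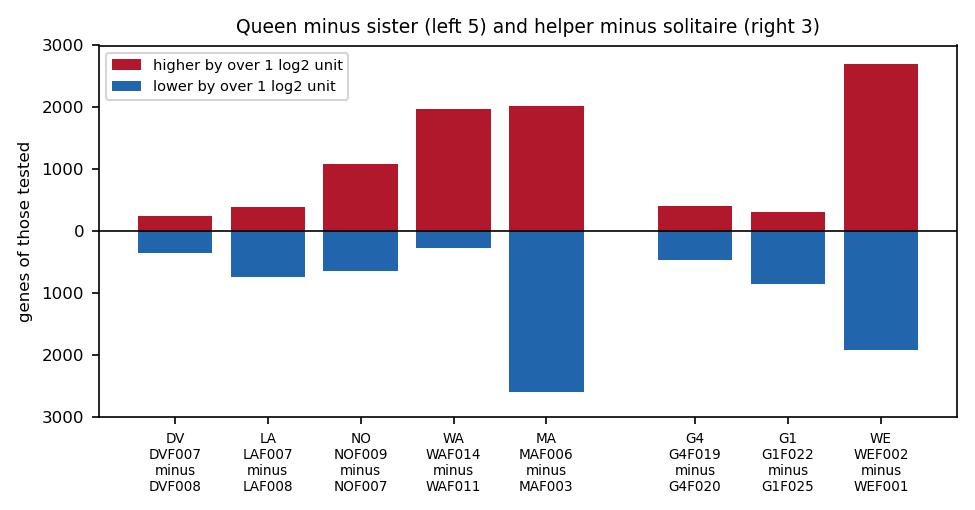
Bars give the number of the 11047 genes that differ by over 1 log2 unit between sisters, above 0 for genes higher in the first animal named under the bar and below 0 for genes lower in it. In WA and NO more genes are higher than lower in the queen (1970 against 277 and 1093 against 636), and the nonbreeder pair WEF002 and WEF001 is as far apart as MA (41.8% and 41.7% of genes).

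The direction was shared by some pairs more than by others. Across the 11047 genes, which are not independent replicates, the correlation of the differences was 0.40 between NO and WA, 0.38 between MA and NO and 0.32 between LA and MA, and between -0.18 and 0.13 for the other 7 combinations of queen pairs. The 5 pairs share no animal. The 76 genes, chosen by the fit to these same pairs, had a median difference of 3.67 in WA, 3.27 in MA, 2.43 in NO, 2.09 in LA and 0.48 in DV, and 60 of the 76 were higher in the DV queen. Between helper and solitaire, the medians of the 76 were 0.01 (G1), -0.21 (G4) and -0.78 (WEF002 minus WEF001).

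Other cultures of the same animals entered the choice of the 76 genes only through the filter on low counts. They had most of the 76 higher in the queen, least so in DV. In estradiol-treated long bone cultures the queen was higher in 76 of 76 genes in NO (median 1.22) and 74 in WA (median 3.97), where 52.8% and 49.8% of all genes tested were higher in the queen. In vehicle cultures from the lumbar vertebrae it was 74 of 76 in LA (median 1.86), 74 in WA (median 2.52) and 51 in DV (median 0.28), against 50.4%, 50.1% and 48.8% of all genes. In estradiol-treated cultures of lumbar vertebrae it was 74 of 76 in WA (median 2.3) and 45 in DV (median 0.24), against 49.2% and 47.6%. These are the same animals, so they give no further replicates of breeding status. CLEC4E was higher in the queen in all 7 of these pairs of cultures, by 0.58 to 5.26 log2 units. LAPTM5 was higher by 0.80 to 2.09 in the 5 of NO, WA and LA and differed by -1.5 and -1.83 in the 2 of DV.

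The number of calls depended on which pairs were in the fit. Without DVF007 or without DVF008, 200 genes passed an FDR of 10% instead of 76, with 197 higher and 3 lower in queens. Without NOF009 it was 1 gene, without NOF007 3, without WAF014 or WAF011 3 each, without LAF007 or LAF008 11 each, without MAF006 15 and without MAF003 16. Leaving out an animal of the colonies without a queen gave 27 to 67 genes. In each of these 16 fits all 76 genes kept a positive log2 fold change, a direction largely set by their choice in the fit to all animals.

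**Figure D5:**
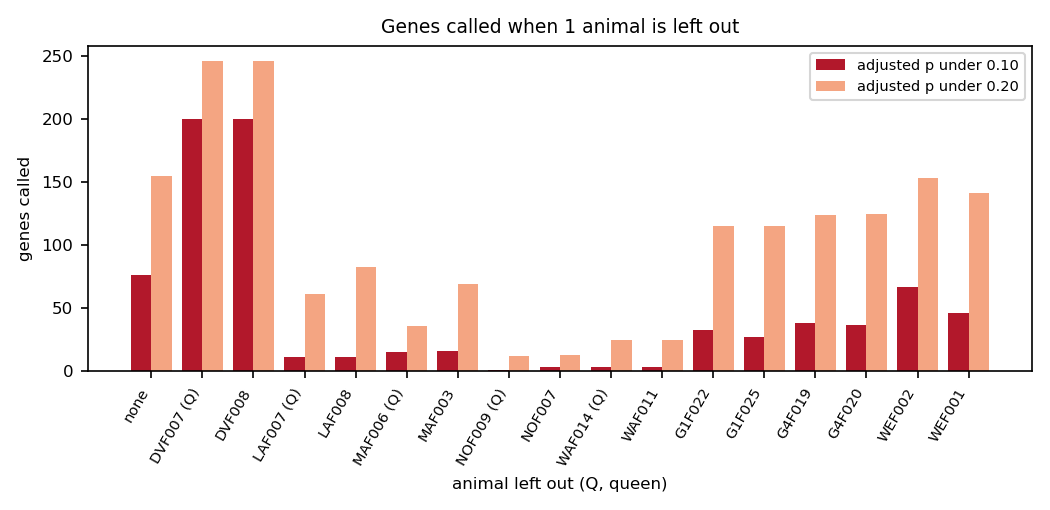
Bars give the number of genes with an edgeR adjusted p under 0.10 (dark) and under 0.20 (light) with all 16 animals (none) and with each animal left out. The count rises from 76 to 200 without a DV sister and falls to between 1 and 3 without a sister of NO or WA.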

How the data were processed

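RNA-Seq of polyA RNA was performed on cells cultured from pooled long bones. The authors trimmed reads with cutadapt (version 2.3 in the submitters' processing notes), aligned them with STAR to DMR_v1.0, and counted uniquely mapped reads on Ensembl genes with HTSeq. The deposited values are raw counts per gene. The strand setting is not given in the sources used here, so overlapping and antisense genes are uncertain, as are near-identical copies.

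Here, genes were kept where 25% or more of all 47 libraries reached a CPM of 2, with CPM in place of the study's TPM because gene lengths were not given. Queens were compared with nonbreeders with edgeR 4.0.16 (TMM, two-sided quasi-likelihood test, R 4.3.3), natal colony as a block, and Benjamini-Hochberg adjustment. With the block, colonies without a queen inform the spread and not the log2 fold change. Standard errors are the log2 fold change divided by the root of F. Levels are CPM with TMM scaling, and differences within pairs are on the log2 CPM scale (prior count 2). DESeq2 1.42.0 and limma 3.58.1 served as alternatives, and the scripts were tested on simulated counts. Each animal is 1 replicate. No culture was a copy of another (chi-squared per degree of freedom at least 26.8 over 65 pairs of the same breeding status).

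The block rests on the study's account of littermate sisters. For the G1 and the G4 sisters the study gives unlike paternity. With the mean of each breeding status subtracted, sisters correlated across genes at -0.12 (WEF001 and WEF002) to 0.84 (DV), with a median of 0.33, against a median of -0.09 for other pairs of animals.

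Symbols came from a supplementary table of the paper, of which 1594 rows were used; 1147 identifiers had a symbol, 1117 of them among the genes tested, and the RefSeq table matched 0. The 12 gene lists and the genes named were chosen with earlier results of these data known. Named by rule are the 10 symbols with the smallest p in each direction (at the first of FDR 10%, FDR 20% or unadjusted p 0.05 that 10 pass), 2 identifiers without a symbol in each direction, list members past FDR 20% (at most 4 a list), CTSK, COL1A1, PHEX, LAPTM5, CORO1A, ADAM8, ENG and CDK1, and the gene with the smallest p under 2 study terms. Of the genes this rule names, 1 is not reported here.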

Additional observations from a re-analysis of the deposited data

Results flagged for a closer look

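Among the 5 queens, 43 gene levels and 16 summed lists were checked for an animal far from the others, and 4 had a gap to the nearest animal above 0.71 of the range; chance gives about 1 in 20. DVF007 lay far below the other queens for ENSFDAG00000005799, with a gap of 0.727 of the range of log2 CPM, and for the summed cytokine secretion genes, with 0.796 (73.3 CPM, where the other queens had 3520 to 9500 CPM). Its nonbreeding sister DVF008 was low too, with 0.239 CPM of ENSFDAG00000005799, against 1.39 in DVF007, and 80.8 CPM of the summed genes. MAF006 lay far below the other queens for TCF7L1 (0.893) and GREM1 (0.739).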

How the results depend on the processing

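In the 28 alternative fits, which share animals with the fit that chose them, all 76 genes kept a positive log2 fold change. The number at an FDR of 10%, 76 with all animals, was 457 with no filter on low counts (61 of them lower in queens), 282 with DESeq2's Wald test (13 lower), 179 with limma voom, 6 without solitaires, 2 in the 5 sister pairs alone (neither among the 76), and 0 with vehicle and estradiol counts summed (edgeR, 960 at an unadjusted p under 0.05). With no replicate block, 0 genes passed 10% and 2 passed 20%. The number at 20%, 155 with all animals, was 569 with no filter, 355 with the Wald test, 248 with limma voom, 163 with vehicle and estradiol summed, 41 without solitaires and 16 in the pairs alone. Chosen after seeing the data, leaving out the MA pair gave 11 and 37 genes, and leaving out MA and NO gave 0 and 0. The fit without solitaires lacks MAF003, the sister of the MA queen. Its log2 fold changes thus come from the DV, LA, NO and WA pairs, as they do without the MA pair. Leaving out 1 animal gave 1 to 200 genes at 10% and 12 to 246 at 20%, moving the count by over 1.5 times in 15 and 10 of the 16 fits. The unfiltered fit tests 23139 genes, and fits with fewer animals have fewer residual degrees of freedom. No cause of the changes in these numbers was tested. DESeq2's size factors, filterByExpr and a filter on the 16 libraries gave 73 to 81 genes at 10%.

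Among the named genes, directions turned only for 4 that passed no threshold. COL1A1 (-0.54) was 0.64 without the block of pairs, 0.03 without solitaires or the MA pair, 0.50 without MA and NO, and -0.94 to 0.04 with 1 animal left out. ENG (-0.24) was 0.14 without the block, 0.08 without solitaires or the MA pair, and -0.66 to 0.09 with 1 animal left out. CDK1 (0.08) was -0.06 without the block, -0.15 without solitaires or the MA pair, -0.14 without MA and NO, and -0.15 to 0.18 with 1 animal left out. PHEX (0.33) was -0.03 with summed counts and -0.26 without MA and NO. CLEC4E kept an adjusted p under 0.20 in all 16 fits that left out 1 animal, and CTSS in 9 of them. The depth limits genes near 0 counts, such as GPR65 in DV.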

Other observations

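ENSFDAG00000017019, the gene that was lower in queens at an FDR of 20%, was near 0 in most animals and high in a few. In long bone vehicle cultures it was 180 CPM in NOF007, 67.5 in G4F019, 55.0 in MAF003, 5.14 in WEF002 and 3.74 in LAF008, and 0 to 0.937 CPM in the other 11 animals, all 5 queens among them. NOF007, MAF003 and LAF008 are sisters of queens, and G4F019 has a nonbreeding sister at 0. Each of the 3 highest animals was high in all its cultures of either bone and treatment: 70.0 to 226 CPM over 4 cultures of NOF007, 60.7 to 77.8 over 3 of G4F019 and 26.5 to 55.2 over 2 of MAF003. Their sisters had at most 3 counts in any culture. The sizes of the fitted change (-8.67, SE 2.01, edgeR adjusted p = 0.131) depend on the prior count, and it passed an FDR of 20% in 4 of the 16 fits that left out 1 animal.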
